A study of Homo sapiens with 12 samples.

Results

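C/D box small nucleolar RNA (snoRNA) genes were taken as every gene whose symbol in the GENCODE 29 annotation starts with SNORD, which gave 278 of the 58735 annotated genes. They were read in 12 RNA-seq libraries of the human cell line HEK293T, which derives from embryonic kidney and expresses the large T antigen of SV40. Transfection was in 24-well plates. Cells received 500 ng of a plasmid for the microRNA miR-211 or of a control plasmid, by lipofection. Other cells received 1 nM of a Dicer-substrate siRNA against the spliceosomal RNA U1, or a scrambled oligo with no dose recorded here. All 4 groups are the same unmodified line, each has 3 libraries, and total RNA, extracted 24 h after transfection, was read as pairs of 126 nt. The labels state a minimum transfection efficiency of 50% by GFP and a 30% inhibition of U1, so cells that took up no nucleic acid may be part of each group. The labels do not say that replicates were separate cultures, so each p-value rests on the spread among libraries that may be technical repeats. In such bulk RNA, fewer cells making an RNA and less of that RNA per cell cannot be told apart.

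C/D box snoRNAs carry a short box C near the 5′ end and a box D near the 3′ end, and they bind the methyltransferase FBL with NOP56, NOP58 and SNU13. Most guide the 2′-O-methylation of ribosomal or spliceosomal RNA by base pairing, while U3, U8 and U13 act in the processing or modification of pre-rRNA. In human cells most are excised from introns of host genes after splicing and trimmed by exonucleases, whereas U3 is transcribed from its own promoter. SNORD113 and SNORD114 lie in the imprinted cluster at 14q32 and SNORD115 and SNORD116 in the imprinted cluster at 15q11-q13. The members of these clusters are orphan snoRNAs, with few or no known rRNA targets, and are best known from brain.

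The symbols gave 4 classes. The dispersed class held 145 genes, 60 of them in introns of a same-strand host gene and clear of its exons, 80 overlapping an exon of their host and 5 outside any host. U3, U8, U13 and their annotated copies made up 16 genes, the SNORD113/SNORD114 cluster 39 and the SNORD115/SNORD116 cluster 78. The genes were short, from 64 to 791 bases with a median of 82, and 257 of the 278 were shorter than a single read. The fragment size and RNA selection of the libraries are not given in the sources used here. A pair counted for such a gene may also come from a longer RNA across it, such as an unspliced host transcript, so the values are counts over the gene and not levels of the mature snoRNA.

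Box letters were searched on the RNA strand, TGATG for box C up to the midpoint of the gene and CTGA for box D in the last 20 bases. Both were found in 235 of 278 SNORD genes (84.5%), against 1 of 147 H/ACA box snoRNA (SNORA) genes (0.680%). The share was 130 of 145 in the dispersed class, 32 of 39 in SNORD113/SNORD114, 68 of 78 in SNORD115/SNORD116 and 5 of 16 among U3, U8 and U13. Among U3, U8 and U13 box D was found in 16 of 16, so their low share comes from the box C letters and window searched here. A match or a miss is a description of the letters and not of a working box.

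The sequences below are from GENCODE 29 transcripts on GRCh38, 5′ to 3′ on the RNA strand, with box C and box D in capitals. The first 5 are the dispersed intronic genes with the most counts, whose values lead the account of the dispersed class. SNORD17 lies at chr20:17962710-17962946 on the minus strand in an intron of SNX5, SNORD12C at chr20:49278940-49279028 on the plus strand in an intron of ZFAS1, and SNORD14A at chr11:17074654-17074744 on the minus strand in an intron of RPS13. SNORD70 at chr2:202276431-202276518 and SNORD11 at chr2:202293051-202293134 lie on the plus strand in introns of NOP58. SNORD4A at chr17:28722582-28722653, plus strand, in an intron of RPL23A, is shown because counts over it appeared only when the strands were counted apart.
SNORD17: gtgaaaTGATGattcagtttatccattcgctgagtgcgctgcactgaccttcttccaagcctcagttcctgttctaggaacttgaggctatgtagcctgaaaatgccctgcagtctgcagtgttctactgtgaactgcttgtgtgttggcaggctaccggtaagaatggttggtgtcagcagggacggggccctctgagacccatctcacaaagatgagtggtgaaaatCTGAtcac
SNORD12C: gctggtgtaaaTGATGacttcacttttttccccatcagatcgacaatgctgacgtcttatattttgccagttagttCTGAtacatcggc
SNORD70: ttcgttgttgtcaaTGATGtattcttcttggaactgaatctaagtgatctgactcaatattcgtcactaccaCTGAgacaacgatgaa
SNORD11: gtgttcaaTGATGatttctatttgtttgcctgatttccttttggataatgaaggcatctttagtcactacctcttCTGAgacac
SNORD14A: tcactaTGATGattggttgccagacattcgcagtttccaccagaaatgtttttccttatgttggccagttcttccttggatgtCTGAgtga
SNORD4A: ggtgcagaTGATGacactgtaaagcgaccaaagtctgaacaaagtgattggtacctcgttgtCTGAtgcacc

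Pairs of copies with counts, from 3 of the 4 cluster families, show how alike or unlike copies can be. SNORD114-5 (chr14:100955370-100955439) and SNORD114-22 (chr14:100982926-100982997), both plus strand, were 86.1% identical, with 10 edits between them. SNORD115-12 (chr15:25191416-25191497) and SNORD115-18 (chr15:25203227-25203308), both plus strand, were 96.3% identical, with 3 edits. SNORD116-1 (chr15:25051477-25051571) and SNORD116-25 (chr15:25097663-25097754), both plus strand, were 68.4% identical, with 30 edits.
SNORD114-5: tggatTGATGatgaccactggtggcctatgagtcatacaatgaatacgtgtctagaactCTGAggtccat
SNORD114-22: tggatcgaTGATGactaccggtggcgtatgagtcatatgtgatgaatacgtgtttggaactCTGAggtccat
SNORD115-12: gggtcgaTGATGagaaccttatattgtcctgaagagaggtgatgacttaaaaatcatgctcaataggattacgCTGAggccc
SNORD115-18: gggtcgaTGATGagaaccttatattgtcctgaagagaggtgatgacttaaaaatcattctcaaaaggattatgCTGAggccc
SNORD116-1: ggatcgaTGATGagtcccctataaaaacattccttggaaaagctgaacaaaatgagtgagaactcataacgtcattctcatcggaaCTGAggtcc
SNORD116-25: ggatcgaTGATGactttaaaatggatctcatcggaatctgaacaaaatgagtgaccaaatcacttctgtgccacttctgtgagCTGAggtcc

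Identity to the nearest other SNORD gene, as edits over the longer length, had a median of 65.9% in the dispersed class, 88.9% in SNORD113/SNORD114 and 98.8% in SNORD115/SNORD116. At an identity of at least 95% were 55 of 78 SNORD115/SNORD116 genes, 15 of them with an identical copy, and 0 of 39 SNORD113/SNORD114 genes. Pairs mapping to several places are listed apart in this count format and enter no gene's count, so pairs that lie wholly within identical copies could not be counted.

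Libraries held 6070116 to 8459646 gene counts in the miR-211 group, 6226067 to 7484566 in the control plasmid group, 4515728 to 6343000 in the U1 siRNA group and 5903205 to 9290686 in the scrambled oligo group. U1 siRNA replicate 2 stood apart, with 44.5% of its uniquely mapped pairs outside annotated exons against 14.5% to 25.5% in the others, so sums and tests of the U1 siRNA group are also given without it. MIR211 had 1646, 1997 and 1976 counts in the miR-211 libraries and 1 to 9 in every other library. Summed over 4 RNU1 genes, U1 gave a CPM (count scaled to the total gene counts of its library) of 2.19 ± 0.382 with U1 siRNA and 3.11 ± 0.883 with scrambled oligo (SD, n = 3 each), from 37 and 67 counts, and without U1 siRNA replicate 2 it was 2.39 ± 0.182 (n = 2). The labelled line was checked on NEFL, NEFM, VIM, PAX2 and LHX1, all taken beforehand as genes known in it. NEFL (86.4 CPM on average), NEFM (20.8) and VIM (52.9) were expressed. The kidney factors PAX2 and LHX1 were near 0 at 0.205 and 0.207 CPM, so the check held for only part of the list. Markers of blood, fibroblast, liver and melanocyte (PTPRC, HBB, COL1A1, COL3A1, ALB, MLANA, PMEL and TYR) averaged 0.0711 to 2.36 CPM, a range that includes PAX2 and LHX1.

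The SNORD genes gave few reads. All 278 together had 5005 counts over the 12 libraries, 2292 of them from SNORD17. No count in any library was found for 159 genes, 119 had at least 1, and 43 (15.5%) reached the 10 counts over all libraries taken here as detection (41 without U1 siRNA replicate 2). Of the detected genes 39 were dispersed, with 4542 counts in the class (90.7%), and 4 were of the U3, U8 and U13 class, with 369 counts (7.37%). No gene of SNORD113/SNORD114 (61 counts, 1.22%) or SNORD115/SNORD116 (33 counts, 0.659%) was detected.

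Among dispersed genes, those in introns and those on exons separated widely. Intronic genes held 4478 counts, and 36 of the 60 were detected. Genes overlapping a host exon held 43 counts, and 2 of the 80 were detected. Of the 5 outside a host only SNORD65C was detected, with 18 counts.

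The same split appeared when any annotated exon of another gene was considered, in the host or not. Without such an overlap were 174 SNORD genes, of which 60 were at 0 and 41 were detected, with 4962 counts. With one were 104 genes, of which 99 were at 0 and 2 were detected, with 43 counts. Of the 104, 84 were covered in full by the other exon, and all 84 had 0 counts in the unstranded column. Of the 20 covered in part, 15 were at 0, and the 43 counts came from 5 genes. SNORD89 had 24 counts with a single base covered by RNF149, and SNORD63 had 16 with 20 of its 68 bases covered by HSPA9.

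In this count format a pair that overlaps exons of several genes is put into a separate ambiguous line and into no gene, and these lines held 6.93% to 10.8% of uniquely mapped pairs. Of the 84 genes covered in full, 82 were covered on their own strand, and they were at 0 in the strand columns too. SNORD4A and SNORD13 were covered only by an exon on the opposite strand. Where the strands were counted apart, SNORD4A had 95 counts in one strand column and 107 in the other, and SNORD13, the U13 snoRNA, had 19 and 22. SNORD genes without an overlap had 2362 and 2604 counts in these columns, so the columns did not separate the strands. Counts over SNORD4A and SNORD13 may therefore come from the gene on the opposite strand and cannot be assigned. By construction of the format, a gene covered in full receives no count when the other exon was in the annotation used, so its 0 gives no level. Of the 84, 57 were covered only by transcripts outside the basic set of the annotation.

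The overlapped genes include many known guides. All 6 SNORD genes of SNHG1, and all 4 each of NOP56, RPL4, RPL13A, RPL7A and RPL23A, overlapped an annotated exon and had 0 counts, although SNHG1 itself stood at 136.2 CPM. In ZFAS1, SNORD12C and SNORD12B were clear of exons and had 267 and 19 counts, while SNORD12 was covered and had 0. In GNL3, SNORD19 and SNORD69 had 109 and 98 counts and the covered SNORD19B had 0. SNORD118, which encodes U8, overlapped TMEM107 and was at 0. The H/ACA genes showed the same split, with 52 of 61 overlapped genes at 0 against 7 of 86 genes without overlap. The counting rule applies to them in the same way, so a 0 under a covering exon gives no level there either.

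**Figure D1:**
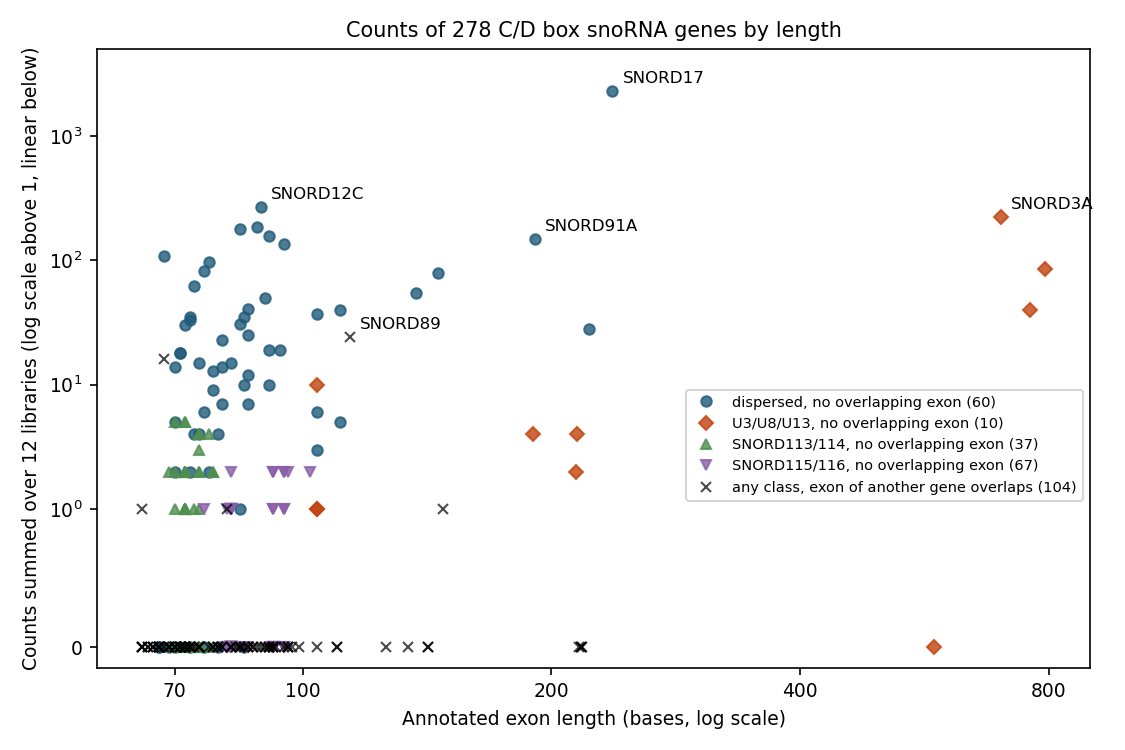
Counts of each of the 278 SNORD genes summed over the 12 libraries (y axis, log scale above 1 and linear below) against annotated exon length in bases (x axis, log scale). Crosses are the 104 genes overlapped by an exon of another gene, 99 of them at 0, and the other symbols are the 174 genes without such an overlap, coloured by class, with SNORD17 the highest at 2292 counts.

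Clear of other exons, the dispersed class had 60 genes, of which 37 were detected and 8 were at 0. Their median was 15 counts over the 12 libraries. Genes of at least 100 bases had a median of 38.5 counts (10 genes) and shorter ones a median of 14 (50 genes). Over the 55 intronic genes among them, in 43 hosts, counts went with length (Spearman's rho 0.400) and with the CPM of the host gene (rho 0.579). Without SNORD17 these were 0.366 and 0.595. These are descriptions across genes that share the same 12 libraries and in part the same hosts, and longer genes catch more pairs at a given level.

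SNORD17, a guide for 28S rRNA and the longest of the dispersed genes, had 176, 232 and 226 counts with miR-211, 197, 187 and 229 with control plasmid, 165, 112 and 172 with U1 siRNA and 210, 167 and 219 with scrambled oligo. In CPM these were 28.99, 27.4 and 29.2, then 31.6, 26.9 and 30.6, then 26.0, 24.8 and 30.0, then 28.6, 28.3 and 23.6. The libraries lay between 23.6 and 31.6 CPM and all 4 groups overlapped. Per length SNORD17 stood at 118.2 CPM per kb, above the 26.2 CPM per kb over the exons of its host SNX5. These measures are unlike. A host is divided by all its annotated exons joined, and pairs shared with exons of other genes are left out. A short snoRNA gene also counts pairs that overlap it only in part. Only 5 other genes of the 55 were above their host per kb: SNORD12C (36.1 against 13.7 for ZFAS1), SNORD99 (10.04 against 3.36 for SNHG12), SNORD62B (5.83 against 1.49 for PRRC2B), SNORD56B and SNORD28B, the last on 4 counts.

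SNORD12C, another 28S guide, had 2.80, 2.84 and 3.88 CPM with miR-211, 5.62, 2.45 and 4.14 with control plasmid, 2.68, 3.10 and 2.26 with U1 siRNA and 3.13, 2.03 and 3.66 with scrambled oligo. Control plasmid held the highest value, and its range covered that of miR-211. SNORD70 and SNORD11 guide 18S rRNA and share NOP58, the gene of a core protein of their own particle, as host. SNORD70 had 2.14, 2.25 and 1.68 CPM with miR-211, 1.77, 2.45 and 2.54 with control plasmid, 1.89, 3.76 and 2.26 with U1 siRNA and 2.18, 2.54 and 2.15 with scrambled oligo. SNORD11 had 1.81, 2.13 and 1.68 CPM with miR-211, 2.89, 1.87 and 3.07 with control plasmid, 3.00, 2.44 and 2.09 with U1 siRNA and 1.64, 2.20 and 1.61 with scrambled oligo. The highest SNORD70 value was U1 siRNA replicate 2, and neither gene separated any pair of compared groups. The SNORD11B gene of the same host had 50 counts in all.

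The 18S guide SNORD14A, in RPS13, had 1.81, 2.25 and 1.16 CPM with miR-211, 1.12, 1.44 and 2.14 with control plasmid, 2.05, 2.66 and 1.74 with U1 siRNA and 2.18, 2.54 and 1.94 with scrambled oligo. SNORD91A, a 28S guide in TSR1, had 0.824, 2.13 and 1.81 CPM with miR-211, 1.93, 1.73 and 2.40 with control plasmid, 0.946, 1.99 and 2.09 with U1 siRNA and 2.73, 1.36 and 1.51 with scrambled oligo. In both genes the groups overlapped in every comparison. SNORD83A in RPL3 averaged 1.70 CPM over the 12 libraries and SNORD19 in GNL3 1.35. SNORD69, also in GNL3 and a 28S guide, averaged 1.21 CPM and SNORD100 in RPS12, an 18S guide, 1.00. Levels per length ran in another order: 26.2 CPM per kb for SNORD70 and for SNORD11, 21.1 for SNORD14A, 19.8 for SNORD19, 17.9 for SNORD83A and 9.35 for SNORD91A. The annotated length of SNORD91A is longer than its sequence of 95 bases, so its value is low for that reason and its rank is not comparable. All of these were below their hosts on these unlike measures, with NOP58 at 229 CPM per kb and RPS13 at 683. Of the dispersed genes further down, SNORD15B in RPS3 had 79 counts, SNORD99 in SNHG12 62, and SNORD94 in PTCD3, a guide for U6, 55.

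**Figure D2:**
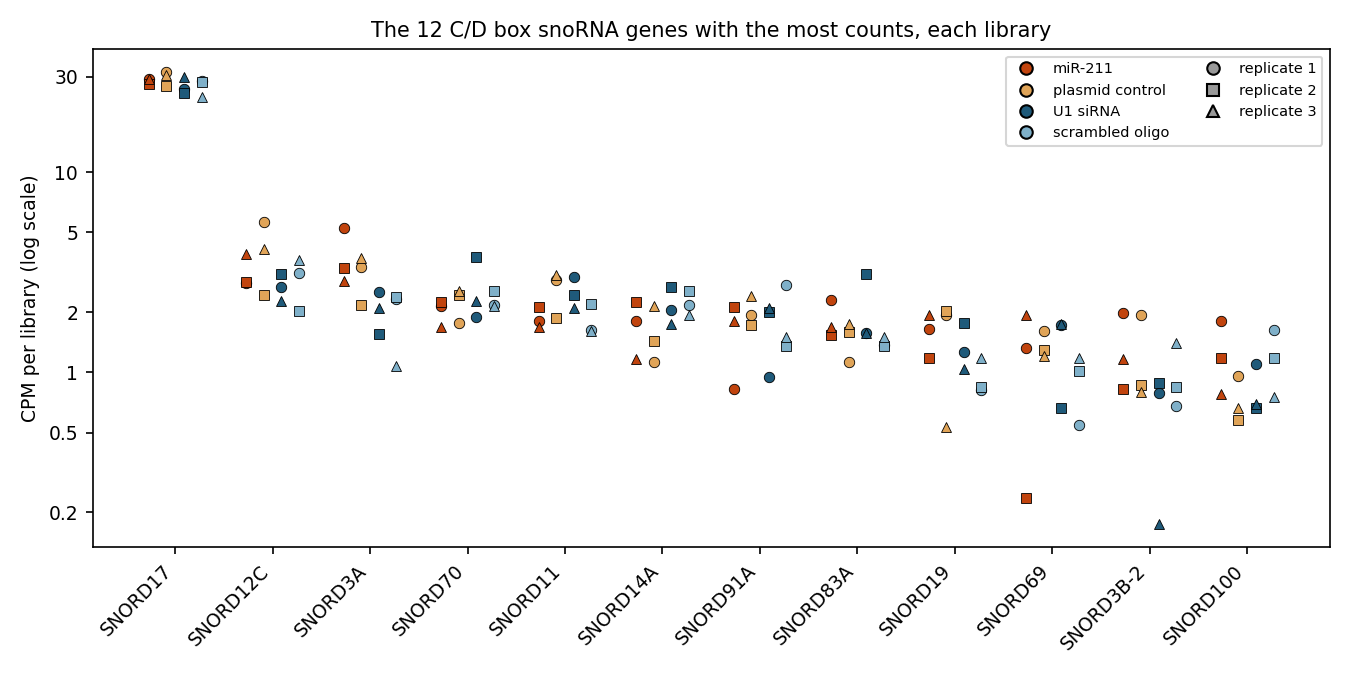
CPM (log scale) in each of the 12 libraries of the 12 SNORD genes with the most counts, coloured by group, with the symbol giving the replicate. SNORD17 lies between 23.6 and 31.6 CPM in all libraries and the groups overlap in the tested genes.

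U3 has several near-identical gene copies, so reads may be split between them or lost as multiply mapped, and their single values are uncertain. SNORD3A, whose annotation of 699 bases is longer than the mature RNA, had 5.27, 3.31 and 2.85 CPM with miR-211, 3.37, 2.16 and 3.74 with control plasmid, 2.52, 1.55 and 2.09 with U1 siRNA and 2.32, 2.37 and 1.08 with scrambled oligo. The plasmid groups lay mostly above the oligo groups, with overlap in control plasmid replicate 2. SNORD3B-2 averaged 1.03 CPM on 85 counts and SNORD3B-1 0.492 CPM on 40 counts. SNORD3C and both annotated genes named SNORD3D were at 0, the latter covered by exons of a noncoding gene. Summed over the class, CPM was 6.05 ± 1.49 with miR-211, 4.98 ± 1.57 with control plasmid, 3.39 ± 0.621 with U1 siRNA and 3.60 ± 0.610 with scrambled oligo (SD, n = 3), and U1 siRNA without replicate 2 gave 3.53 ± 0.804 (n = 2). The ratio of control plasmid to scrambled oligo, from all counts of each group, was 1.41 (exact 95% interval 1.04 to 1.91), and that of miR-211 to control plasmid was 1.19 (0.913 to 1.56). Libraries of the same number are paired by the data in the miR-211 comparison. Within pairs miR-211 was higher in 3 of 3, at 7.74 against 6.42, 4.96 against 3.31 and 5.43 against 5.21 CPM. This paired difference was not tested. By pair the dispersed class went both ways, at 57.7 against 61.8, 54.1 against 51.1 and 54.6 against 62.9 CPM, and so did both clusters. The intervals of the ratios cover counting error only, and the control libraries overlapped at 3.31 to 6.42 CPM against 2.91 to 4.07.

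The SNORD113/SNORD114 cluster gave 61 counts over 27 of its 39 genes. Its libraries fell apart without regard to group: 12, 1 and 1 counts with miR-211, 1, 0 and 12 with control plasmid, 2, 11 and 2 with U1 siRNA and 9, 1 and 9 with scrambled oligo. The 5 libraries with 9 to 12 counts had them spread over 7 to 10 different genes each, and the other 7 had at most 2. No gene had more than 3 counts in a library, and 11 of the 27 had counts in a single library. SNORD114-5, SNORD114-6 and SNORD114-22 led with 5 counts each, followed by SNORD114-3, SNORD114-7 and SNORD114-31 with 4.

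MEG8, the noncoding host of the cluster, had 61 counts of its own (0.837 CPM on average). In those 5 libraries (miR-211 replicate 1, control plasmid replicate 3, U1 siRNA replicate 2 and scrambled oligo replicates 1 and 3) it had 10, 1, 17, 5 and 10 counts, and in the other libraries 0 to 6. The share of pairs outside annotated exons was 16.8% to 44.5% in those 5 libraries and 14.5% to 22.9% in the other 7, and its part in the cluster counts was not tested. The neighbouring imprinted genes were also near 0, with MEG3 at 0.496, RTL1 at 0.205 and DLK1 at 0.140 CPM.

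The SNORD115/SNORD116 cluster gave 33 counts over 26 of its 78 genes, 20 of them in a single library. Libraries held 1, 2 and 4 counts with miR-211, 0, 2 and 10 with control plasmid, 0, 5 and 2 with U1 siRNA and 2, 0 and 5 with scrambled oligo. Control plasmid replicate 3 alone gave 10, over 9 genes. At most 2 counts fell on any gene over all libraries, in SNORD115-18 and in SNORD116-1, SNORD116-6, SNORD116-7, SNORD116-10, SNORD116-11 and SNORD116-25. Their host SNHG14, a long noncoding RNA, had 111 counts (1.44 CPM), and SNRPN stood at 0.304 CPM, while the neighbouring ubiquitin ligase gene UBE3A was at 42.4 CPM. SNORD112 in MEG8 and SNORD107, SNORD108, SNORD109A and SNORD109B in SNHG14, counted as dispersed by their symbols, were all at 0. All but SNORD109B were overlapped by an exon of another gene, and SNORD109B is identical in sequence to SNORD109A. Their counts therefore set no limit on a level.

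**Figure D3:**
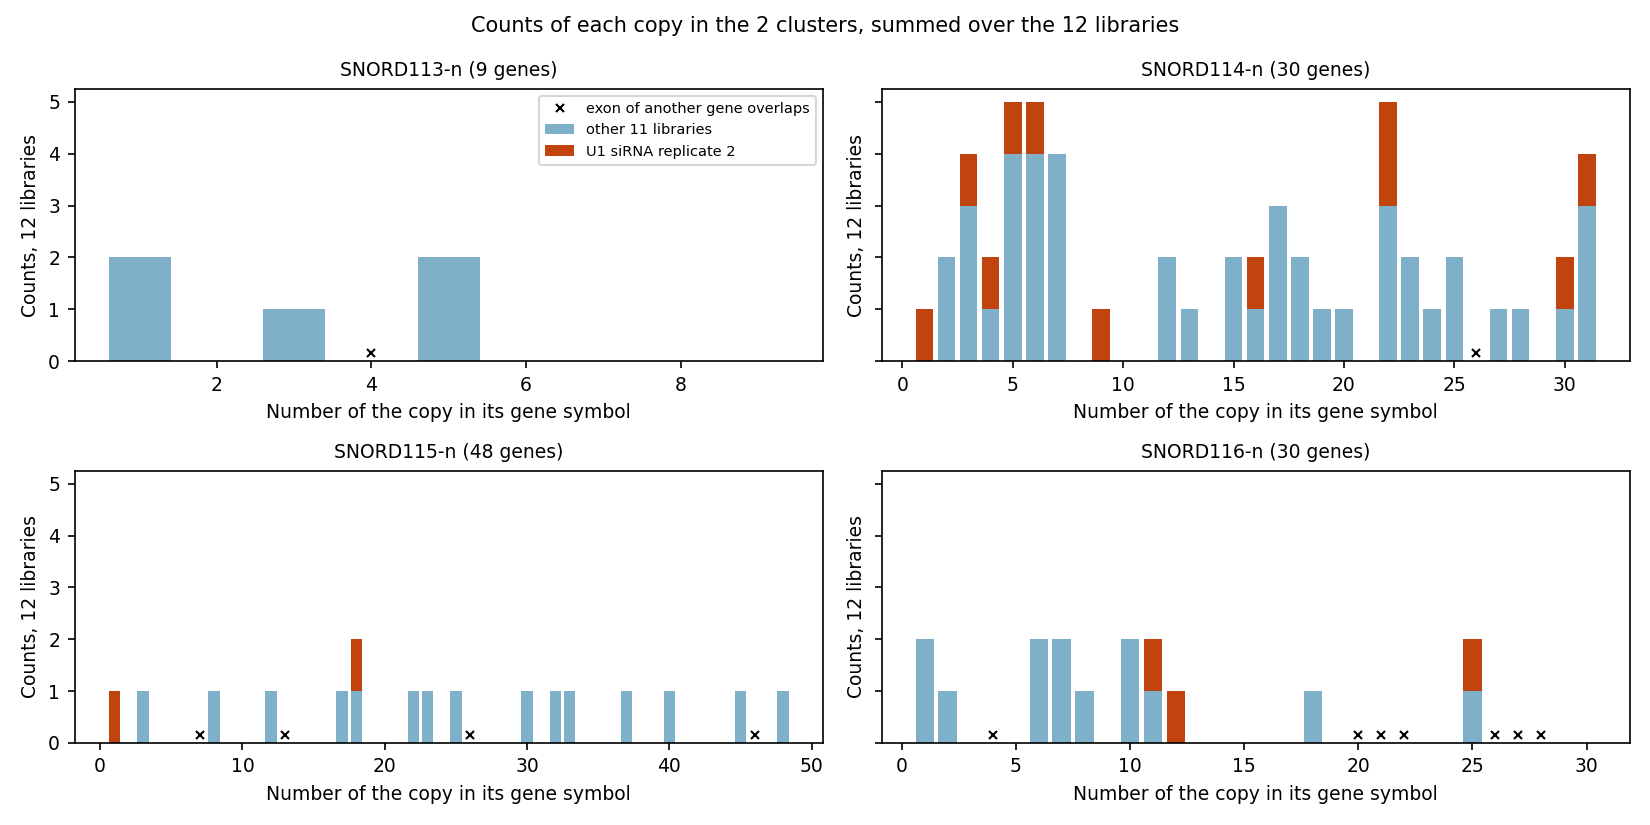
Counts summed over the 12 libraries (y axis) for each copy of SNORD113, SNORD114, SNORD115 and SNORD116, by the number in its symbol (x axis), with U1 siRNA replicate 2 in red and the other 11 libraries in blue; crosses mark copies overlapped by another gene's exon. No copy exceeds 5 counts, and counts are spread over the copies with no single dominant copy.

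U1 siRNA replicate 2 gave 11 of the 61 counts in SNORD113/SNORD114 and 5 of the 33 in SNORD115/SNORD116. Without it, 25 and 24 genes of the clusters had counts. For counting error alone, a 0 in a library allows up to 3 counts, or 0.323 to 0.664 CPM depending on depth, and a 0 in all libraries up to 0.0366 CPM. This limit does not hold for the 13 cluster copies overlapped by another exon, all at 0, nor for copies with an identical twin, whose pairs may not be countable. At this depth a difference of single cluster copies between groups was not detectable.

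Summed over the clusters, CPM differed between compared groups by less than the larger SD of the pair, though not always by less than the smaller. SNORD113/SNORD114 gave 0.741 ± 1.07 with miR-211, 0.588 ± 0.883 with control plasmid, 1.03 ± 1.21 with U1 siRNA and 0.788 ± 0.551 with scrambled oligo (SD, n = 3), and U1 siRNA without replicate 2 gave 0.332 ± 0.0234 (n = 2). The ratio of U1 siRNA to scrambled oligo was thus 1.07 (0.507 to 2.23) with that library and 0.393 (0.0971 to 1.18) without it. SNORD115/SNORD116 gave 0.306 ± 0.186, 0.541 ± 0.703, 0.485 ± 0.566 and 0.270 ± 0.269 in the same order, and 0.174 ± 0.246 for U1 siRNA without replicate 2. There the ratio moved from 1.36 (0.406 to 4.54) to 0.533 (0.0540 to 2.80). Both differences changed sign without U1 siRNA replicate 2. That of SNORD113/SNORD114, 0.245 CPM, also turned to -0.0644 without scrambled oligo replicate 2. Signs changed in the other comparisons too, in these settings among others. With miR-211, SNORD113/SNORD114 went from 0.154 to -0.464 without miR-211 replicate 1. SNORD115/SNORD116 went from -0.235 to 0.162 without control plasmid replicate 3. Between the controls, SNORD113/SNORD114 went from -0.200 to 0.0938 without control plasmid replicate 2. SNORD115/SNORD116 went from 0.271 to -0.126 without control plasmid replicate 3.

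Summed over the dispersed class, CPM differed between compared groups by less than the larger SD of the pair. It was 55.5 ± 1.92 with miR-211, 58.6 ± 6.55 with control plasmid, 54.9 ± 2.23 with U1 siRNA and 53.3 ± 2.57 with scrambled oligo, and U1 siRNA without replicate 2 gave 53.9 ± 1.93. Without SNORD17 the sums were 26.9 ± 1.67, 28.9 ± 4.23, 28.0 ± 3.65 and 26.5 ± 0.260. For all SNORD genes the ratio of totals was 0.959 (0.889 to 1.03) for miR-211 to control plasmid and 1.03 (0.948 to 1.12) for U1 siRNA to scrambled oligo. Without U1 siRNA replicate 2 the latter was 1.003 (0.914 to 1.10), and the difference of the group means turned from 1.79 to -0.0933 CPM. With miR-211 the difference of the group means, -2.17 CPM, turned to 1.00 without control plasmid replicate 3 and to 0.470 when counted from strand column 3. The ratio was 1.12 (1.04 to 1.21) for control plasmid to scrambled oligo, where the libraries ran from 54.7 to 71.1 CPM against 54.8 to 60.2 and overlapped. Counts over SNORD4A, from both strand columns and scaled to their totals, gave 2.53 ± 0.420, 2.14 ± 0.266, 1.74 ± 0.350 and 2.20 ± 0.453 CPM in the same order of groups. Libraries overlapped in each comparison. These counts may include pairs of the exon on the opposite strand, so they give no level of SNORD4A.

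**Figure D4:**
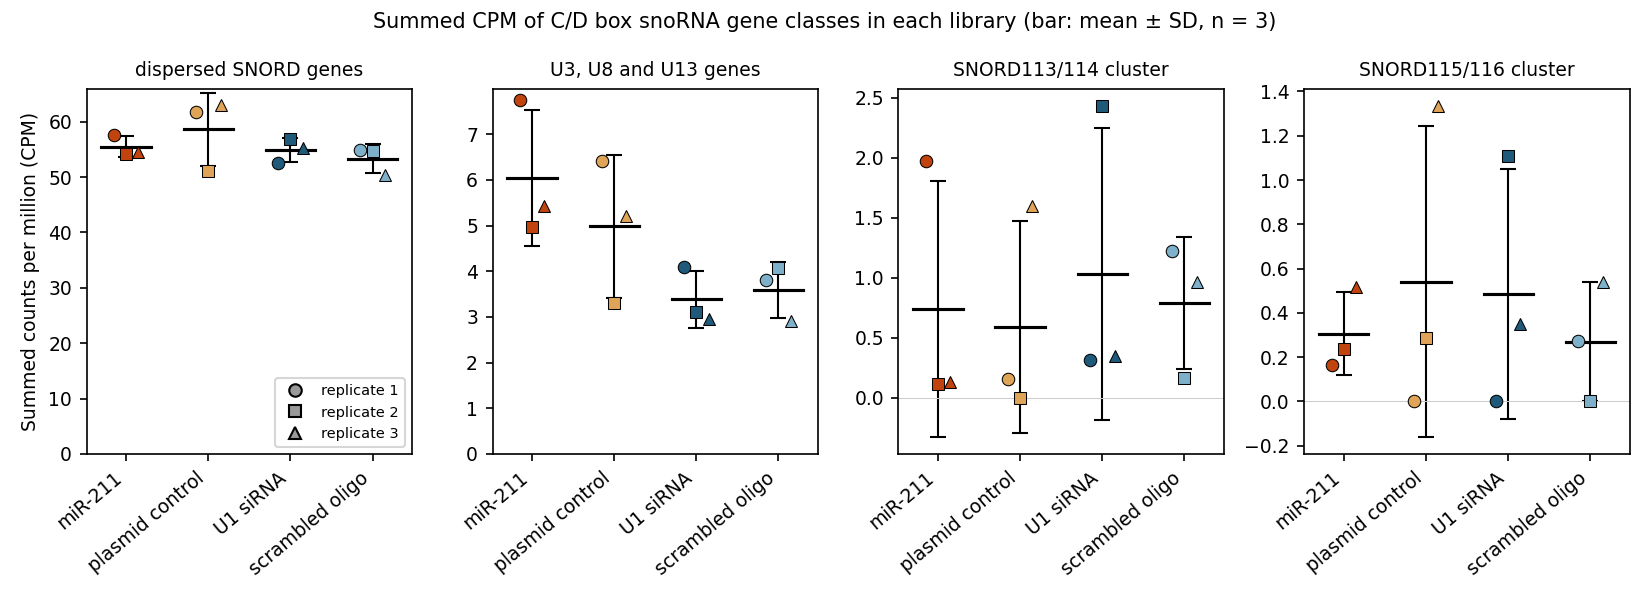
Summed CPM (y axis, own scale in each panel) of the dispersed, U3/U8/U13, SNORD113/SNORD114 and SNORD115/SNORD116 genes in each library by group, with the symbol giving the replicate and bars the mean ± SD (n = 3); SD bars of the clusters reach below 0, values do not. Dispersed sums lie at 50.4 to 62.9 CPM, while in SNORD113/SNORD114 5 libraries lie at 0.969 to 2.44 CPM and the other 7 at or below 0.348.

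The comparison of miR-211 with control plasmid asks what the microRNA changes in these cells. With edgeR's quasi-likelihood test over 12685 genes, 9 SNORD genes could be tested and 0 passed a Benjamini-Hochberg adjusted p under 0.05, beside 1 gene (0.00788%) over all genes tested. At an unadjusted p under 0.05 the count was 0 of 9, and DESeq2 called 0 of 98 and had 0 at that unadjusted p. With no filter on low counts edgeR tested 98 SNORD genes and called 0, beside 0.00452% of all genes. The 9 tested genes had a median log2 fold change of -0.03, against 0.01 over all genes. The fold change of SNORD17 was -0.03 (SE 0.11), and its ratio of totals was 0.960, with an exact 95% interval of 0.858 to 1.07. The furthest from 0 were SNORD11 at -0.44 (SE 0.32), SNORD12C at -0.31 (SE 0.30), SNORD83A at 0.30 (SE 0.37) and SNORD3A at 0.29 (SE 0.30). The smallest adjusted p of a SNORD gene was 0.996 (edgeR). These values leave out the pairing of libraries by number. With the number as a block, edgeR called 0 of 9 SNORD genes, and 0 had an unadjusted p under 0.05. Their smallest adjusted p was then 0.782 (edgeR), while genes under the unadjusted level rose from 417 to 943 of 12685. In no tested gene were the 3 libraries of both groups apart, against 9.7% of all genes tested.

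The comparison of U1 siRNA with scrambled oligo asks what lowering U1 changes, and most snoRNAs of this family are excised from introns of spliced hosts. Of 12413 genes edgeR called 0 (0%), and of 7 SNORD genes tested it called 0. At an unadjusted p under 0.05 there were 0 of 7, and DESeq2 called 0 of 93 with 0 at that unadjusted p. With no filter edgeR called 0 of 93 SNORD genes and 0.015% of all genes, and 2 SNORD genes had an unadjusted p under 0.05. These were SNORD104 in SNHG25 and SNORD13E, a U13-related gene in DENND4A, both named after their values were seen. SNORD104 had 0 counts in all 3 U1 siRNA libraries and 3, 2 and 3 in the scrambled oligo libraries, and SNORD13E had 0 against 4, 1 and 2, with an adjusted p of 0.979 (edgeR) for each. In a single library a 0 allows up to 3 counts, so 1 library alone sets little limit on these genes. Over the 3 U1 siRNA libraries together a 0 limits the level more tightly, and that joint limit was not computed here. SNORD17 had a log2 fold change of 0.01 (SE 0.13) and a ratio of 1.02 (0.903 to 1.16), SNORD11 0.48 (SE 0.36) and SNORD12C -0.17 (SE 0.35). SNORD70 was at 0.17 (SE 0.37), SNORD3A at 0.14 (SE 0.42), SNORD91A at -0.19 (SE 0.45) and SNORD14A at -0.06 (SE 0.35). The median was 0.01, against 0.02 over all genes. Without replicate 2 of U1 siRNA, 8 SNORD genes were tested, 0 were called and 0 had an unadjusted p under 0.05. SNORD70 then turned to -0.11, and the others kept their sign at 0.082 for SNORD17, 0.53 for SNORD11, -0.27 for SNORD12C, 0.34 for SNORD3A, -0.30 for SNORD91A and -0.18 for SNORD14A. Groups were apart in 0 of 7 genes, against 6.45% of all genes tested.

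Control plasmid and scrambled oligo differ in the kind of nucleic acid transfected. Here edgeR called 0 of 12650 genes (0%) and 0 of 8 SNORD genes tested. DESeq2 gave none of its 101 SNORD genes an adjusted p, so it could call none of them. None of the 101 had an unadjusted p under 0.05 in DESeq2. With no filter edgeR called 0 of 101 SNORD genes and 0.114% of all genes. In edgeR a single SNORD gene, SNORD3A, was under that unadjusted level (log2 fold change 0.74, SE 0.35, adjusted p = 0.639). SNORD11 was at 0.55 (SE 0.31), SNORD12C at 0.41 (SE 0.31), SNORD14A at -0.45 (SE 0.34) and SNORD17 at 0.16 (SE 0.11). The median was 0.14, against -0.004 over all genes. Groups were apart in 0 of 8 genes, against 13.9% of all genes tested. This comparison shares its control plasmid libraries with the miR-211 comparison and its scrambled oligo libraries with the U1 comparison.

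Whether miR-211 and U1 siRNA moved a gene differently was read from the interaction in a fit of all 12 libraries. Of 13520 genes edgeR called 1 (0.0074%), and of 10 SNORD genes 0. No SNORD gene had an unadjusted p under 0.05 there, and DESeq2 called 0 of 119 with 0 at that p. With no filter edgeR called 0 of 119, beside 0.00607% of all genes. The lowest unadjusted p was that of SNORD11, 0.0726, with an interaction of -0.92 (SE 0.48) on the log2 scale and an adjusted p of 0.99997 (edgeR).

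**Figure D5:**
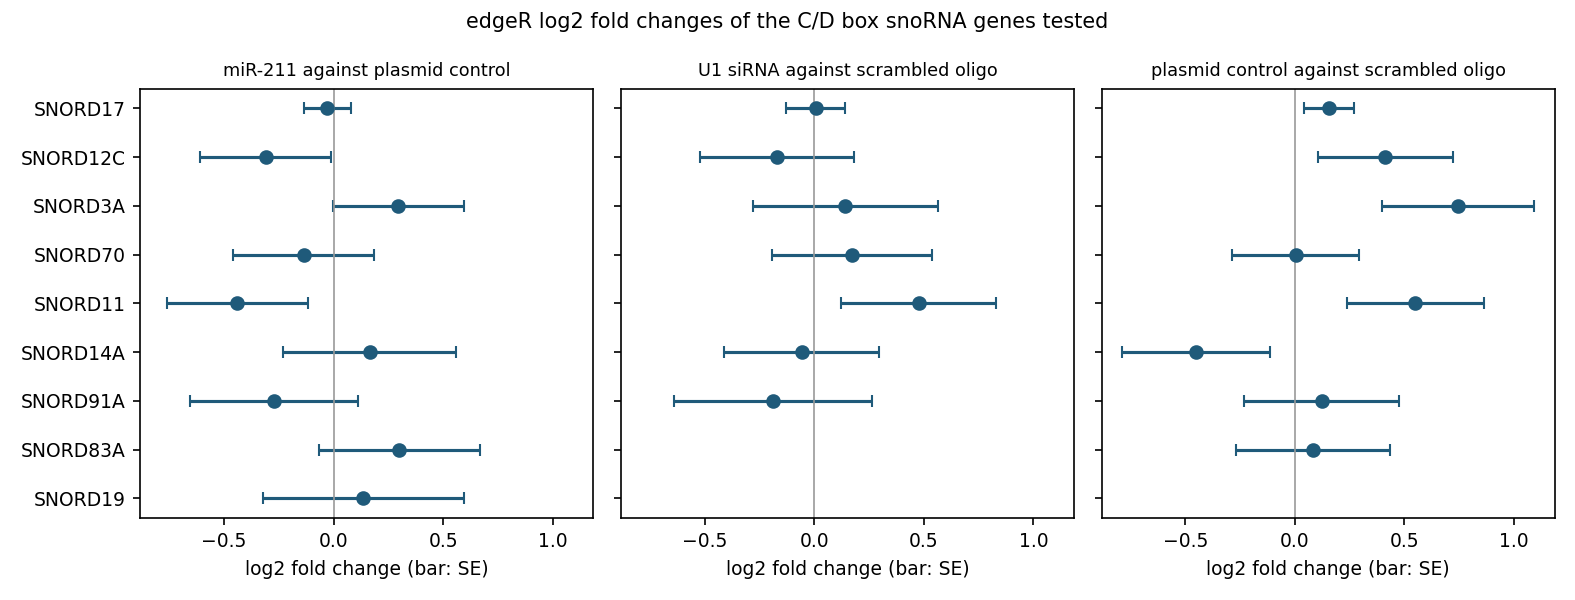
Log2 fold changes (x axis; bar, SE) from edgeR of the SNORD genes tested in each of 3 comparisons, ordered by total counts. SNORD17 has the narrowest bars, and none of the genes passed an adjusted p under 0.05.

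Of 15 genes for C/D snoRNP proteins, edgeR called 0 in each comparison. They comprise the core proteins FBL, NOP56, NOP58 and SNU13, the assembly factors NUFIP1, ZNHIT3, ZNHIT6, RUVBL1, RUVBL2, PIH1D1, RPAP3 and C12orf45, the U3 protein RRP9, the cap hypermethylase TGS1 and the export adaptor PHAX. Higher than control were 11 with miR-211 and 8 with U1 siRNA, and 6 were higher with control plasmid than with scrambled oligo. Their log2 fold changes lay between -0.10 and 0.20 with miR-211, -0.14 and 0.09 with U1 siRNA and -0.12 and 0.13 between the controls, with medians of 0.09, 0.01 and -0.02. The core proteins averaged 103.8 CPM for FBL, 703.2 for NOP56, 754.0 for NOP58 and 539.6 for SNU13. The lowest adjusted p in the list was 0.996, 0.99994 and 0.727 (edgeR).

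Host genes could be tested far better than the snoRNAs they carry. Of 73, 72 and 72 hosts tested, edgeR called 0 in the 3 comparisons, and 6, 3 and 21 had an unadjusted p under 0.05. Over all genes tested, 417 of 12685, 196 of 12413 and 986 of 12650 were under that level. The hosts were chosen for the snoRNAs they carry, and their share was not tested against that of other genes. SNX5, the host of SNORD17, changed by -0.11 (SE 0.07), -0.06 (SE 0.07) and 0.06 (SE 0.06) on the log2 scale. ZFAS1, the host of SNORD12C, was at 0.08 (SE 0.12), -0.19 (SE 0.12) and -0.36 (SE 0.13). In the comparison of both controls, ZFAS1 and SNORD12C therefore had fold changes of opposite sign, with adjusted p of 0.527 and 0.792 (edgeR), and neither passed the test.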

How the data were processed

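The deposited files hold raw read counts per gene, which the authors made with STAR 2.7.2a per the submitters' processing notes. The notes name GRCh37 and hg19, but the identifiers are those of GENCODE 29 (GRCh38), so the alignment build is not settled. Coordinates and sequences printed here are from GENCODE 29 and were not read from the alignments. RNA selection, fragment size and strandedness of the libraries are not given in the sources used here, and the unstranded column was used. Summary lines that name no gene came to 35.4% to 57.4% of each file's total and stayed out of library sizes and tests. CPM is a count scaled to the total gene counts of its library. Tests used edgeR 4.0.16 (TMM, filterByExpr with a minimum count of 10, quasi-likelihood, Benjamini-Hochberg over all genes tested) in R 4.3.3, on the 6 libraries of a comparison, with DESeq2 1.42.0 as an alternative. An SE is the fold change over the square root of F. The test was checked on simulated counts. Ratios of counts have exact 95% intervals, for counting error only. Replicates were not duplicates, with a chi-square of 2.15 to 7.25 for each degree of freedom between them. Same-numbered miR-211 and control plasmid libraries deviated together (r across genes 0.247, 0.279 and 0.245), so these numbers were taken to pair them. The main test left this pairing out, and only the replicate block took it in. Named were the 12 SNORD genes with the highest CPM, the leading cluster copies, U3, U8 and U13 and the tested genes; other names were added after values were seen. The members and gene lists were chosen with earlier results of these data known.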

Additional observations from a re-analysis of the deposited data

How the results depend on the processing

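No SNORD gene was called in any of 55 alternative settings of the 3 comparisons and the interaction. Several settings had little to call. Strand columns 3 and 4 tested 3 and 5 SNORD genes with miR-211, 1 and 1 with U1 siRNA and 3 and 4 between the controls. DESeq2 between the controls gave no SNORD gene an adjusted p, so that setting could make no SNORD call. The replicate block left 0 SNORD calls in each, while over all genes it called 30 between control plasmid and scrambled oligo, where numbers did not pair the libraries (r 0.0556, 0.0297 and 0.181; U1 siRNA 0.133, 0.0947 and -0.0369); without filter 51 were called, by DESeq2 34 and without scrambled oligo replicate 3 21. Of 279 repeats of 24 single-gene fold changes, 32 had the other sign, none of them past the threshold; the causes were not tested. For SNORD17 they were, with U1 siRNA, -0.037 by DESeq2, -0.062 without filter and -0.021 in strand column 4, and with miR-211 0.16 in strand column 3. With each library's percentage outside exons as covariate, SNORD19 was at -0.044 and SNORD70 at 0.020 with miR-211, and SNORD70 at -0.19, SNORD83A at -0.060 and SNORD91A at -0.18 between the controls. SNORD70 between the controls was at -0.0067 under the block. Leaving out a library in turn, fold changes with U1 siRNA ran from -0.36 to 0.010 for SNORD12C, -0.18 to 0.053 for SNORD14A, -0.097 to 0.082 for SNORD17, -0.19 to 0.34 for SNORD3A, -0.11 to 0.37 for SNORD70 and -0.42 to 0.21 for SNORD91A. With miR-211 they ran from -0.10 to 0.46 for SNORD14A and -0.29 to 0.45 for SNORD19, and between the controls from -0.087 to 0.15 for SNORD70, -0.045 to 0.24 for SNORD83A and -0.053 to 0.51 for SNORD91A. With all uniquely mapped pairs as library size, the difference of U1 siRNA from scrambled oligo in summed CPM was -1.88 over all SNORD genes (1.79 by gene counts) and -1.69 over dispersed genes (1.54). Counting only exons of the basic annotation, 36 overlapped genes were at 0, fewer than the 99 because fewer genes overlap. Few members reached the counts needed for a test. The settings on detection and overlap were chosen after seeing the data.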
